A study of Mus musculus with 24 samples.

Results

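The 49 genes described here encode DNA repair enzymes and their partners, and were taken from all 39429 probes of a mouse expression array by gene name. The arrays carry 68 probes for them. A probe counted as measured where it stood well above background on at least 5 of the 24 arrays. By that rule 38 of the 49 genes were measured, among 15785 genes in all, and 11 were not. RNA came from whole blood of male C57BL/6J mice, drawn by cardiac puncture into a lysis solution that preserves RNA, 24 h after x-rays. The groups are 5 arrays of Gadd45aWT at 0 Gy, 5 of Gadd45aWT at 7 Gy, 5 of Gadd45aKO at 0 Gy and 9 of Gadd45aKO at 7 Gy. The genotypes are called WT and KO-labelled here. The labels give neither the animals' age nor the allele or line behind the knockout, and they do not tie an array to an animal. The series text calls the replicates independent experiments. P-values cover the spread among the arrays counted separately, some of which were near-identical, as given below.

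A cell meets radiation damage with several repair routes. Broken ends are joined directly by non-homologous end joining, which starts with the Ku dimer, or copied from a sister strand by homologous recombination. Damaged bases and single-strand breaks are removed by base excision repair, bulky lesions by nucleotide excision repair, copying errors by mismatch repair, and crosslinks by the Fanconi anaemia pathway. Translesion polymerases copy past lesions left in place. Blood is a mixed tissue in which resting lymphocytes are among the cells most sensitive to radiation. In bulk RNA of this kind, fewer cells of a type and less RNA per cell cannot be told apart.

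Gadd45a, the gene named in the genotype labels, was at 0.67 ± 0.24 in WT (SD, n = 5) and 0.52 ± 0.16 in KO-labelled arrays (SD, n = 4) at 0 Gy, a difference of -0.15 ± 0.21 (SE, adjusted p = 0.853 by limma). These and all levels below are log2 signals with each array's 75th percentile set to 0. Its probe was not lower under the knockout label, so directions between genotypes follow the label alone. At 7 Gy it was at -1.19 ± 0.32 in WT (n = 5) and 0.02 ± 0.34 in KO-labelled arrays (n = 9). KO-labelled replicates 1 and 4 at 0 Gy were as alike as spots repeated on one array (ratio of spreads 0.96) and were counted as 1 sample, so n = 4 in that group. By a robust spread, which gives outlying probes little weight, other arrays were also this alike. These were WT 0 Gy replicates 2 and 3 (0.92), WT 7 Gy replicates 1 and 2 (0.92) and 3 and 4 (0.93). The others were KO-labelled 7 Gy replicates 1, 2 and 4 (0.89 to 0.94). All of these were counted separately, except in the alternative with near-identical arrays averaged. Each of 5 slides held 1 array of every group, and the sixth slide held KO-labelled 7 Gy replicates 6 to 9 only. WT 7 Gy replicates 3 to 5 stood apart in transcripts of liver cells, and 3 arrays had repeat spots that varied by over 10%. Between 25.6% and 50.9% of an array's probes stood well above background. The lowest share of a WT array was 36.8%. KO-labelled 7 Gy replicates 2, 4, 5 and 6 had 25.6% to 33.2%, and KO-labelled 0 Gy replicate 2 had 26.1%. These 5 are the dim arrays left out in an alternative below. The highest share, 50.9%, was that of KO-labelled 7 Gy replicate 7.

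In WT blood, 13 of the 38 measured repair genes fell after 7 Gy and 2 rose. The fallers were Parp1, Apex1, Lig3, Fanca, Parp2, Prkdc, Xpa, Rpa1, Msh6, Fancl, Xpc, Tdp1 and Xrcc6, in order of size. Mgmt and Polk rose. Over all genes tested, 13.6% were called lower and 10% higher (limma, Benjamini-Hochberg adjusted p under 0.05), beside 34.2% and 5.26% of the repair genes. The count of WT decreases was 15 with the slide as a block (16.2% of all genes lower), 6 with near-identical arrays averaged (8.38%), 2 without WT 7 Gy replicates 3 to 5 (5.64%) and 0 after normexp background correction (2.33%). In KO-labelled blood 27 of 38 fell (71.1%, against 34.6% of all genes) and the same 2 rose (5.26%, against 12.4%). All 13 genes that fell in WT also fell in KO-labelled arrays, and no member fell in WT alone. Both counts of decreases include Prkdc, which passed the filter through 0 Gy arrays alone. The median change of the 38 genes was -0.44 in WT, where that of all genes was -0.05, and -1.17 in KO-labelled arrays, where that of all genes was -0.26. Relative to all genes these are -0.39 and -0.91. The arrays of the doses did not overlap for 12 members that were lower in WT and 2 that were higher, where 16.8% and 11.7% of all genes did so. In KO-labelled arrays this held for 20 lower and 1 higher, against 19.5% and 5.04% of all genes.

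The zero point of the KO-labelled response moved with the scaling. The median change of all genes was -0.26 as reported, -0.01 with each array scaled to its median, 0.07 with the 75th percentile taken over all probes, -0.07 after quantile normalization, 0.27 in the authors' value table and 0.47 after normexp background correction. The members' median relative to all genes was -0.91, -0.91, -0.86 and -1.23 under the first 4 of these alternatives and was -0.15 after normexp. In WT the same alternatives gave -0.39, -0.39, -0.38 and -0.52, and 0.05 after normexp. Of all genes called in KO-labelled arrays 26.3% were higher as reported, and 39.6%, 46.7%, 39.3%, 48.0% and 58.8% under these 5 alternatives. The called decreases of KO-labelled arrays numbered 24, 23 and 21 of 38 under the other 3 scalings and 15 of 25 in the authors' table, with the same 2 increases. The shares of all genes called lower under these settings are not given, so these counts are not set against the background.

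**Figure D1:**
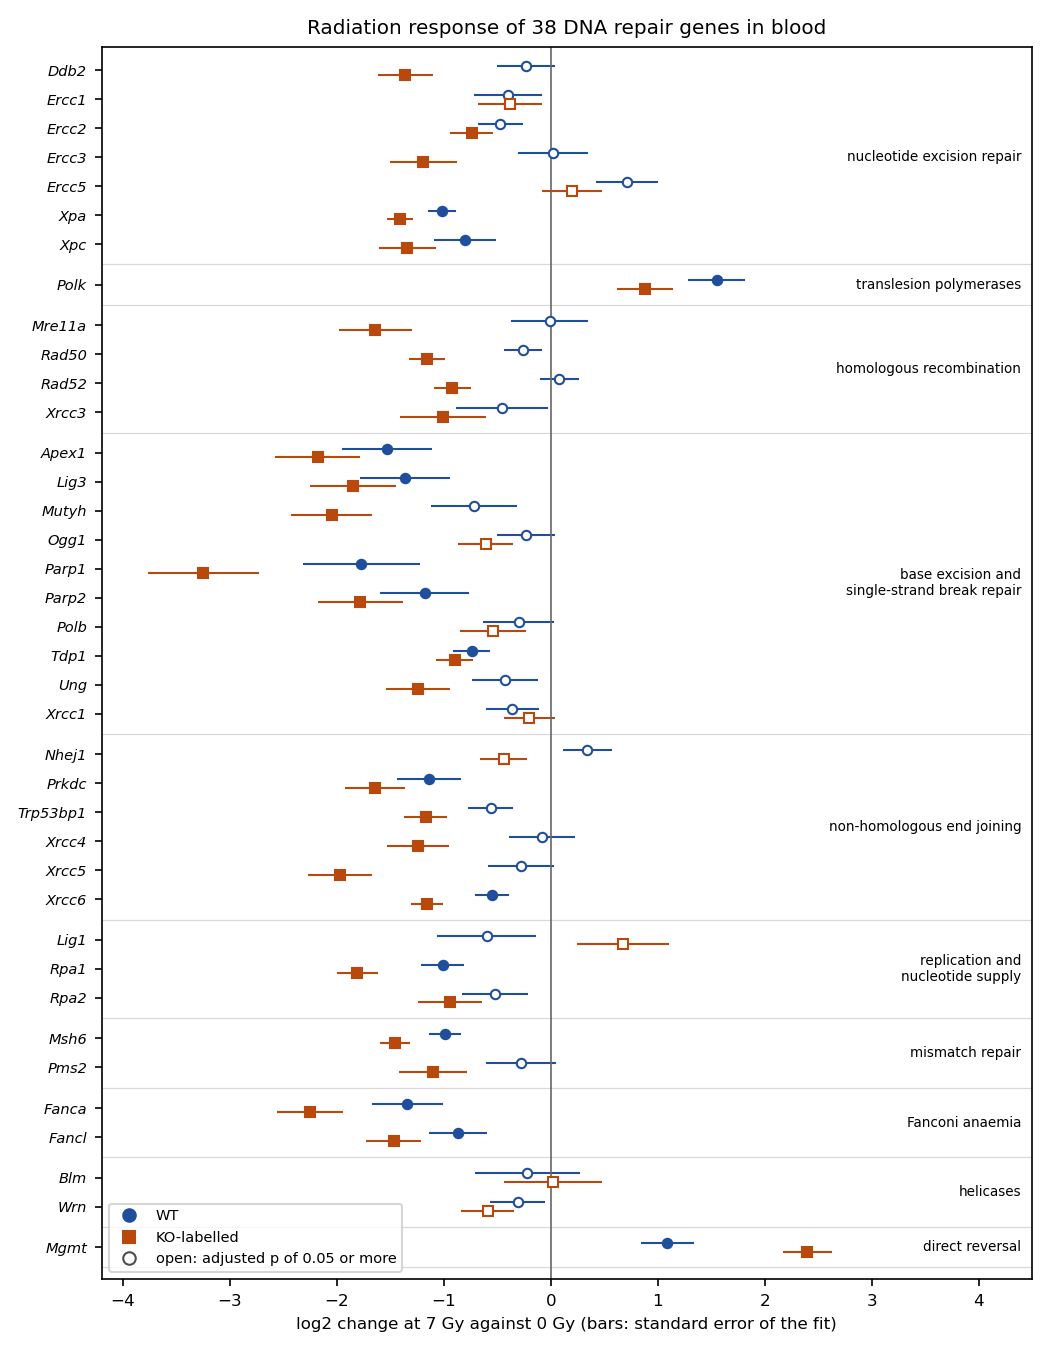
Change in log2 signal at 7 Gy against 0 Gy (horizontal axis) for each of the 38 measured repair genes, grouped by role, in WT (circles) and KO-labelled arrays (squares), with standard errors. Filled symbols passed the test; 13 and 27 filled symbols lie left of 0, and only Mgmt and Polk are filled on the right.

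Mgmt, which takes alkyl groups off guanine in a single step, was measured on all 24 arrays. Its level was -1.67, -1.79, -1.77, -1.67 and -1.79 in WT at 0 Gy, against -0.43, -0.40, -0.82, -0.77 and -0.82 at 7 Gy. In KO-labelled arrays it was -2.19, -3.12, -2.39 and -3.22 at 0 Gy, against a lowest, median and highest value of -0.86, -0.54 and 0.61 at 7 Gy. No 7 Gy array was as low as any 0 Gy array in either genotype. Mgmt rose by 1.09 ± 0.25 in WT (log2, SE; 2.12-fold, adjusted p = 0.00215) and rose by 2.40 ± 0.23 in KO-labelled arrays (5.28-fold, 4.79e-08). On every one of the 5 slides it was higher at 7 Gy, by 0.89 to 1.38 in WT and 1.45 to 3.37 in KO-labelled arrays. Both calls held under every alternative tried. Mgmt began lower in KO-labelled arrays at 0 Gy, with a difference of -0.99 ± 0.26 and no overlap of the arrays, although that difference did not pass over all genes (0.135).

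Polk encodes the translesion polymerase kappa, which copies past damaged bases. Its level was -6.56, -6.83, -7.10, -6.51 and -6.57 in WT at 0 Gy, against -4.97, -4.45, -5.37, -5.32 and -5.69 at 7 Gy. KO-labelled arrays had it at -6.43, -5.40, -7.03 and -6.19 at 0 Gy, against a lowest, median and highest value of -5.99, -5.33 and -5.02 at 7 Gy. WT arrays did not overlap between doses, while in KO-labelled arrays replicate 2 at 0 Gy lay among the 7 Gy values. Polk rose by 1.55 ± 0.27 in WT (2.94-fold, adjusted p = 0.000164) and rose by 0.88 ± 0.26 in KO-labelled arrays (1.84-fold, 0.00717), and the difference between these was -0.67 ± 0.37 (0.223). The KO-labelled call ended without KO-labelled 0 Gy replicate 3 (0.0575), and both ended after normexp (0.444 and 0.367). At 0 Gy Polk was near the floor, well above background on 1 of 5 WT arrays, against 5 of 5 at 7 Gy.

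The 250 bases before the start of 5 members are shown: Mgmt and Polk as the members that rose, and 3 that fell because they hold the letters searched for. They come from the RefSeq promoter table (GRCm38.p6), which holds 37 of the 49 members. Where the table lists several starts, as it does for Mgmt and Polk, the one farthest upstream is given. Capitals mark the p53 half-site, the E2F cores TTTCCCGC, TTTGGCGC and TTTGCCGC, and CCAAT, on either strand. Mgmt and Polk, which rose, have none in these windows. The other 3 were picked for a match, and Parp1, Parp2, Lig3, Fancl, Tdp1, Rad52, Trp53bp1, Ung and Xrcc4, which also fell, have none.
Mgmt, chr7:136894336-136894585, plus strand: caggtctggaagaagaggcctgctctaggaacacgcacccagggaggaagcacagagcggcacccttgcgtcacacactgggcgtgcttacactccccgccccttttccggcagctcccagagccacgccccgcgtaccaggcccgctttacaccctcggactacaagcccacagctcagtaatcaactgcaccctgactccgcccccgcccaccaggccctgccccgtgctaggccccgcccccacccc
Polk, chr13:96542580-96542829, minus strand: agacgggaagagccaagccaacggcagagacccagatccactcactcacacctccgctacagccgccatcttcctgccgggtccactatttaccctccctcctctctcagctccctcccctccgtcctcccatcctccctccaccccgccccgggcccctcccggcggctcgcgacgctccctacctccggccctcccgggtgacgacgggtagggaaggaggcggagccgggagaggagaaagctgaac
Fanca, chr8:123318577-123318826, minus strand: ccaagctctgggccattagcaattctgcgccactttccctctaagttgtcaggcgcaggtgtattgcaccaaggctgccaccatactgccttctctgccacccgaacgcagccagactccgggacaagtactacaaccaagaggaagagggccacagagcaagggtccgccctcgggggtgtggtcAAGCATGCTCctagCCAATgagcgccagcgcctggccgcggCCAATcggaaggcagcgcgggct
Xrcc6, chr15:82016119-82016368, plus strand: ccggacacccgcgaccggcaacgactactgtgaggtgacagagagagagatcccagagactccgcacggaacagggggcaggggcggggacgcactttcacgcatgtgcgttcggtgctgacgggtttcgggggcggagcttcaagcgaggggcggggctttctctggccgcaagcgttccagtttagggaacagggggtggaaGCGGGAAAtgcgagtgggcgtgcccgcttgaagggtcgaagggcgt
Rpa1, chr11:75348384-75348633, minus strand: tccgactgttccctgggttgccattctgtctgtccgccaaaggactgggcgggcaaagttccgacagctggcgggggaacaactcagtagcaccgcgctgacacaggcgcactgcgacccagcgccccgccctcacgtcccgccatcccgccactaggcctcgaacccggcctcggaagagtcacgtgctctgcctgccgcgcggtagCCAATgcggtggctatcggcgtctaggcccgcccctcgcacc

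Counted over 300 bases, from 250 before to 50 after the start, CCAAT stood in 20 of the 37 member promoters (54.1%) and in 38% of all 27025 promoters. An E2F core stood in 3 members (8.11%, Brca2, Msh6 and Xrcc6), against 2.05% of all promoters. The p53 half-site stood in 1 member, Fanca (2.70%, against 8.34%), where the pattern matches on both strands and does not overlap the CCAAT boxes behind it. In Xrcc6 the capitals are the E2F core of the minus strand, at position -46 to -39, and in Rpa1 a CCAAT box at -42 to -38. A match is a run of letters, not a measured binding site. Ddb2, Ercc3, Exo1, Fancd2, Nbn, Polb, Prkdc, Rad50, Rrm2b, Wrn, Xpc and Xrcc2 had no entry.

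All 7 nucleotide excision repair genes were measured. Of these, 2 fell in WT (28.6%) and 5 in KO-labelled arrays (71.4%), against 13.6% and 34.6% of all genes. Xpa, the scaffold that holds the repair complex at a lesion, gave the smallest adjusted p of all members in both responses. Its level was -2.01, -2.13, -2.19, -2.10 and -1.94 in WT at 0 Gy, against -3.01, -3.08, -3.29, -3.20 and -2.87 at 7 Gy. Under the KO label it was -1.78, -1.64, -1.77 and -1.67 at 0 Gy, against a lowest, median and highest value of -3.31, -3.17 and -2.92 at 7 Gy. Every irradiated array lay below every unirradiated one in both genotypes. Xpa fell by 1.02 ± 0.13 in WT (2.02-fold, adjusted p = 2.66e-06) and fell by 1.41 ± 0.12 in KO-labelled arrays (2.65-fold, 9.04e-09), and the differences within slides were -1.10 to -0.93 and -1.62 to -1.24. A further Xpa probe, also measured on all 24 arrays, fell by 0.69 ± 0.19 in WT (0.0119) and fell by 0.72 ± 0.18 in KO-labelled arrays (0.00284). On mm9 the first probe lies at chr4:46188146-46188205 and the further one at chr4:46197239-46197298, both on the minus strand.

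Xpc, which finds lesions that distort the helix, was at -2.92, -3.35, -3.31, -3.33 and -3.22 in WT at 0 Gy, against -4.45, -4.29, -3.83, -4.04 and -3.53 at 7 Gy. The KO-labelled samples stood at -3.72, -4.74, -3.55 and -3.34 at 0 Gy, against a lowest, median and highest value of -5.99, -5.14 and -4.25 at 7 Gy. WT arrays did not overlap between doses, and KO-labelled arrays overlapped through 0 Gy replicate 2 and 7 Gy replicate 9. Xpc fell by 0.80 ± 0.29 in WT (1.74-fold, adjusted p = 0.0471) and fell by 1.34 ± 0.27 in KO-labelled arrays (2.54-fold, 0.000357). The WT call was marginal, since the adjusted p rose above 0.05 without any of 9 of the 10 WT arrays (0.0619 to 0.111) and with near-identical arrays averaged (0.199).

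Ddb2, the sensor of ultraviolet lesions and a gene known to be induced by p53, was at -4.63, -5.01, -5.25, -5.08 and -4.94 in WT at 0 Gy, against -5.06, -4.86, -5.46, -5.49 and -5.21 at 7 Gy. Among KO-labelled samples the values were -4.72, -4.15, -4.89 and -4.75 at 0 Gy, against a lowest, median and highest value of -7.40, -5.78 and -5.31 at 7 Gy. The WT groups overlapped, and the KO-labelled groups did not. Ddb2 gave a change of -0.23 ± 0.27 in WT (adjusted p = 0.626), with no call, and fell by 1.36 ± 0.26 in KO-labelled arrays (2.56-fold, 0.00019).

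Ercc3, a helicase subunit of the transcription factor TFIIH, was at -5.36, -5.19, -5.41, -5.03 and -5.17 in WT at 0 Gy, against -5.16, -5.21, -5.12, -5.41 and -5.13 at 7 Gy. In KO-labelled arrays it was -5.08, -4.99, -5.37 and -4.57 at 0 Gy, against a lowest, median and highest value of -7.40, -6.19 and -4.79 at 7 Gy. Its WT values were nearly the same at both doses, with a change of 0.02 ± 0.33, while it fell by 1.19 ± 0.31 in KO-labelled arrays (2.28-fold, adjusted p = 0.00304), a call ended by quantile normalization (0.0716) and in the authors' table (0.0654). It stood well above background on 4 of 9 KO-labelled 7 Gy arrays. Ercc2, the other TFIIH helicase, fell by 0.74 ± 0.20 in KO-labelled arrays (0.0048), a call that 3 other scalings ended (0.0546 to 0.158), and gave a change of -0.47 ± 0.21 in WT (0.125). Ercc1 and Ercc5, parts of the nucleases that cut out the lesion, passed in neither response. Ercc5 had the largest uncalled increase in WT, at 0.71 ± 0.29 (0.0821).

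Of 10 measured genes of base excision and single-strand break repair, 5 fell in WT (50%) and 7 in KO-labelled arrays (70%). Over all genes 13.6% and 34.6% fell. Parp1, the enzyme that marks strand breaks with poly(ADP-ribose), had the largest decrease of any member. Its level was -7.28, -3.63, -3.64, -3.41 and -3.93 in WT at 0 Gy, against -5.62, -6.34, -6.53, -6.36 and -5.90 at 7 Gy. KO-labelled arrays had it at -3.37, -4.12, -3.65 and -3.20 at 0 Gy, against a lowest, median and highest value of -8.25, -6.48 and -5.96 at 7 Gy. WT 0 Gy replicate 1 lay below all 7 Gy arrays of WT and was the one WT 0 Gy array where Parp1 was not well above background. Parp1 fell by 1.77 ± 0.55 in WT (3.41-fold, adjusted p = 0.0215) and fell by 3.25 ± 0.52 in KO-labelled arrays (9.53-fold, 2.83e-05). Of the 9 KO-labelled 7 Gy arrays 3 had it well above background. On slide 1 the WT difference was 1.66, and on the other 4 slides -2.95 to -1.97. The WT call ended without WT 0 Gy replicate 2, 3, 4 or 5 or WT 7 Gy replicate 3 (0.0527 to 0.0664) and with near-identical arrays averaged (0.188).

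Apex1, which cuts the strand where a base has been removed, was at -4.19, -4.80, -4.70, -4.60 and -4.83 in WT at 0 Gy, against -6.89, -5.98, -5.87, -5.69 and -6.35 at 7 Gy. Under the KO label it was -4.73, -5.03, -4.65 and -4.08 at 0 Gy, against a lowest, median and highest value of -7.97, -6.96 and -5.36 at 7 Gy. Doses did not overlap in either genotype. Apex1 fell by 1.53 ± 0.42 in WT (2.89-fold, adjusted p = 0.00904) and fell by 2.18 ± 0.40 in KO-labelled arrays (4.53-fold, 0.000106), and the differences within slides were -2.71 to -1.09 and -2.94 to -2.0. Apex1 was well above background on 3 of 5 WT and 3 of 9 KO-labelled arrays at 7 Gy.

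Parp2, a relative of Parp1 that also binds strand breaks, was at -5.81, -5.69, -5.68, -6.10 and -6.28 in WT at 0 Gy, against -8.31, -6.84, -6.50, -6.82 and -7.01 at 7 Gy. The KO-labelled samples stood at -5.66, -4.67, -5.66 and -5.14 at 0 Gy, against a lowest, median and highest value of -8.09, -6.87 and -5.54 at 7 Gy. Parp2 was well above background on 3 of 5 WT arrays at 0 Gy and on no WT array at 7 Gy. Set against the dimmest signal that counted as measured, mean Parp2 was at least 1.69-fold lower in WT, a bound on the means that carries no error. In the fit it fell by 1.18 ± 0.42 in WT (adjusted p = 0.0429) and fell by 1.78 ± 0.40 in KO-labelled arrays (0.000827). The WT call ended without WT 7 Gy replicate 1 (0.133), its lowest array, or any of 6 other WT arrays (0.0578 to 0.0859).

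Lig3, the ligase that seals nicks, fell by 1.36 ± 0.42 in WT (adjusted p = 0.0198) and fell by 1.85 ± 0.40 in KO-labelled arrays (0.00054). The WT call ended without WT 0 Gy replicate 2 (0.0523) or WT 7 Gy replicate 3 (0.0721) or 4 (0.0627). At 7 Gy Lig3 was well above background on 1 of 5 WT and 2 of 9 KO-labelled arrays. Tdp1, which frees DNA ends from trapped topoisomerase, fell by 0.74 ± 0.17 (0.00297) and fell by 0.90 ± 0.17 (0.000128). A dimmer Tdp1 probe gave a change of 0.05 ± 0.72 and 0.25 ± 0.68 and was not called. The glycosylases Mutyh and Ung, which cut out mispaired adenine and uracil, in KO-labelled arrays fell by 2.05 ± 0.38 (0.000141) and fell by 1.24 ± 0.30 (0.00152), and gave a change of -0.72 ± 0.40 (0.22) and -0.43 ± 0.31 (0.374) in WT. Mutyh was well above background on 2 of 9 KO-labelled 7 Gy arrays. The only Ung probe ends in a long run of the letters GT, and whether its signal is particular to Ung was not tested. Ogg1, Polb and Xrcc1 passed in neither response, with changes from -0.61 to -0.20.

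Non-homologous end joining had 6 of 7 members measured. Of these, 2 fell in WT (33.3%) and 5 in KO-labelled arrays (83.3%), against 13.6% and 34.6% of all genes. Both counts include Prkdc, which passed the filter through 0 Gy arrays alone. The first step of this route is the binding of broken ends by Ku, whose subunits are encoded by Xrcc6 and Xrcc5. Xrcc6, measured on all 24 arrays, was at -3.13, -3.11, -2.94, -3.26 and -3.12 in WT at 0 Gy, against -3.17, -3.44, -3.74, -3.90 and -4.07 at 7 Gy. Among KO-labelled samples the values were -2.83, -2.57, -2.89 and -2.90 at 0 Gy, against a lowest, median and highest value of -4.13, -3.96 and -3.76 at 7 Gy. WT replicate 1 at 7 Gy lay among the unirradiated values and the other 4 below them, and KO-labelled doses did not overlap. Xrcc6 fell by 0.55 ± 0.16 in WT (1.47-fold, adjusted p = 0.0115) and fell by 1.16 ± 0.15 in KO-labelled arrays (2.24-fold, 1.72e-06), and the difference of -0.61 ± 0.21 did not pass (0.0564). Without WT 7 Gy replicates 3 to 5 the WT call ended (0.606).

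Xrcc5, the larger Ku subunit, was at -6.26, -5.59, -5.52, -5.62 and -5.49 in WT at 0 Gy, against -5.48, -5.79, -6.03, -6.05 and -6.52 at 7 Gy. In KO-labelled arrays it was -5.11, -4.68, -5.41 and -5.32 at 0 Gy, against a lowest, median and highest value of -8.00, -7.08 and -6.24 at 7 Gy. WT values overlapped between doses, whereas every KO-labelled 7 Gy array lay below every KO-labelled 0 Gy array. Xrcc5 gave a change of -0.28 ± 0.31 in WT (0.609) and fell by 1.97 ± 0.30 in KO-labelled arrays (3.91-fold, adjusted p = 1.31e-05), with differences of -2.53 to -1.76 within slides. It was well above background on 2 of 9 KO-labelled 7 Gy arrays.

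Prkdc, the catalytic subunit of the DNA-dependent protein kinase that Ku recruits, was at -7.53, -6.64, -6.94, -7.32 and -6.72 in WT at 0 Gy, against -7.90, -7.56, -8.59, -8.49 and -8.33 at 7 Gy. KO-labelled arrays had it at -6.49, -6.08, -6.65 and -6.10 at 0 Gy, against a lowest, median and highest value of -8.88, -8.05 and -6.80 at 7 Gy. It was dim throughout, well above background on 2 of 5 WT and 4 of 5 KO-labelled arrays at 0 Gy and on none of the 14 at 7 Gy. Prkdc therefore passed the filter through unirradiated arrays alone. That favours a decrease, so its calls are no independent support for one. Prkdc fell by 1.14 ± 0.30 in WT (adjusted p = 0.00648), with no fold over the detection floor, and fell by 1.64 ± 0.28 in KO-labelled arrays (5.99e-05), at least 1.06-fold. Xrcc4, the scaffold of the end-joining ligase, and Trp53bp1, which holds ends back from resection, in KO-labelled arrays fell by 1.24 ± 0.29 (0.00132) and fell by 1.17 ± 0.20 (4.82e-05), calls that quantile normalization ended (0.0599 and 0.0541). In WT they gave a change of -0.08 ± 0.31 (0.905) and -0.56 ± 0.21 (0.0511). Xrcc4 was well above background on 2 of 9 KO-labelled 7 Gy arrays, and Trp53bp1 on 5 of 9. Nhej1, a partner of Xrcc4, passed in neither, at 0.34 ± 0.23 and -0.44 ± 0.22.

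Homologous recombination had 4 of 10 members measured. None of the 4 was called in WT, and all 4 fell in KO-labelled arrays, where 13.6% and 34.6% of all genes fell. With 4 genes such shares are coarse. Xrcc3 was well above background on 1 of 9 KO-labelled 7 Gy arrays. Its call ended without 1 array, and a dimmer Rad50 probe was not called, as given below. Mre11a is the nuclease of the complex that first trims broken ends. Its level was -6.09, -5.27, -5.60, -5.51 and -5.48 in WT at 0 Gy, against -5.36, -5.17, -6.30, -5.16 and -6.03 at 7 Gy. Under the KO label it was -5.30, -4.57, -5.30 and -4.92 at 0 Gy, against a lowest, median and highest value of -8.17, -6.74 and -5.66 at 7 Gy. WT doses overlapped and KO-labelled doses did not. Mre11a gave a change of -0.01 ± 0.36 in WT (0.99) and fell by 1.64 ± 0.34 in KO-labelled arrays (3.11-fold, adjusted p = 0.000469). Its probe was well above background on 2 of 9 KO-labelled arrays at 7 Gy, so the fold rests largely on signals near background.

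Rad50, the ATPase of the same complex, was at -5.31, -5.00, -5.39, -5.35 and -4.99 in WT at 0 Gy, against -5.21, -5.12, -5.89, -5.58 and -5.55 at 7 Gy. The KO-labelled samples stood at -4.96, -4.67, -5.01 and -4.61 at 0 Gy, against a lowest, median and highest value of -6.38, -6.00 and -5.59 at 7 Gy. The pattern was that of Mre11a: WT arrays overlapped, with a change of -0.26 ± 0.18 (0.326), and KO-labelled arrays did not, where Rad50 fell by 1.16 ± 0.17 (2.24-fold, 7.81e-06). A dimmer Rad50 probe gave a change of -0.18 ± 0.36 in KO-labelled arrays (0.708) and was not called.

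Rad52, which anneals single strands, was at -6.13, -6.09, -6.10, -5.92 and -5.90 in WT at 0 Gy, against -6.00, -5.87, -6.05, -5.92 and -5.90 at 7 Gy. Among KO-labelled samples the values were -5.71, -5.12, -6.11 and -5.70 at 0 Gy, against a lowest, median and highest value of -7.05, -6.51 and -6.26 at 7 Gy. WT values hardly differed between doses, and all 9 KO-labelled 7 Gy arrays lay below all 10 WT arrays. Rad52 gave a change of 0.08 ± 0.18 in WT (0.824) and fell by 0.92 ± 0.17 in KO-labelled arrays (1.89-fold, adjusted p = 0.000109). The probe stood well above background on 3 of 9 KO-labelled 7 Gy arrays. Xrcc3, which acts in homologous recombination, fell by 1.01 ± 0.40 (0.0452), with KO-labelled 0 Gy replicate 2 at -4.55 and the other samples of that group at -8.31 to -7.00; without it the adjusted p was 0.435, and 8 other single arrays also ended the call (0.0543 to 0.0729).

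Msh6, a subunit of the dimer that binds base mismatches, was measured on all 24 arrays. Its level was -3.32, -3.43, -3.46, -3.56 and -3.41 in WT at 0 Gy, against -4.00, -4.34, -4.61, -4.55 and -4.62 at 7 Gy. In KO-labelled arrays it was -3.13, -3.08, -3.00 and -2.87 at 0 Gy, against a lowest, median and highest value of -4.79, -4.44 and -4.18 at 7 Gy. Doses were separate in both genotypes, and 7 Gy levels overlapped between genotypes. Msh6 fell by 0.99 ± 0.15 in WT (1.99-fold, adjusted p = 3.51e-05) and fell by 1.46 ± 0.14 in KO-labelled arrays (2.76-fold, 6.05e-08). Pms2, the mismatch repair endonuclease, in KO-labelled arrays fell by 1.10 ± 0.32 (0.00673), a call that the 75th percentile over all probes (0.067) and quantile normalization (0.13) ended, as did the authors' table (0.163), and gave a change of -0.28 ± 0.33 in WT (0.633).

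Fanca, a core subunit of the Fanconi anaemia complex, was at -5.13, -5.65, -5.61, -6.06 and -5.71 in WT at 0 Gy, against -6.58, -6.65, -6.64, -7.99 and -6.98 at 7 Gy. KO-labelled arrays had it at -4.93, -4.62, -4.74 and -5.28 at 0 Gy, against a lowest, median and highest value of -8.15, -7.25 and -5.80 at 7 Gy. Neither genotype's doses overlapped. Fanca fell by 1.34 ± 0.33 in WT (2.52-fold, adjusted p = 0.00415) and fell by 2.25 ± 0.31 in KO-labelled arrays (4.77-fold, 4.69e-06). At 7 Gy it was well above background on 1 of 5 WT and 3 of 9 KO-labelled arrays, so these folds rest largely on signals near background.

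Fancl, the ubiquitin ligase of that complex, was at -4.62, -4.24, -4.48, -4.36 and -4.37 in WT at 0 Gy, against -4.72, -4.99, -6.01, -5.38 and -5.31 at 7 Gy. Under the KO label it was -4.52, -3.60, -4.73 and -4.42 at 0 Gy, against a lowest, median and highest value of -6.36, -6.00 and -4.97 at 7 Gy. The doses were again separate in both genotypes. Fancl fell by 0.87 ± 0.27 in WT (adjusted p = 0.0208) and fell by 1.47 ± 0.26 in KO-labelled arrays (6.91e-05). The WT call ended without WT 7 Gy replicate 3 (0.0776) and with near-identical arrays averaged (0.0836). A dimmer Fancl probe gave a change of -0.61 ± 0.38 in WT (adjusted p = 0.277 by limma) and was not called there. In KO-labelled arrays that probe changed by -1.42 ± 0.36 (0.00232). At 7 Gy the brighter probe was well above background on 4 of 9 KO-labelled arrays.

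Rpa1, the large subunit of the protein that coats single-stranded DNA, was at -1.88, -1.20, -1.17, -1.27 and -0.98 in WT at 0 Gy, against -2.14, -1.91, -2.57, -2.61 and -2.30 at 7 Gy. The KO-labelled samples stood at -0.69, -1.16, -0.74 and -0.53 at 0 Gy, against a lowest, median and highest value of -2.95, -2.61 and -1.98 at 7 Gy. The highest 7 Gy value of WT and the lowest 0 Gy value almost met, at -1.91 and -1.88. Rpa1 fell by 1.01 ± 0.20 in WT (2.01-fold, adjusted p = 0.000695) and fell by 1.81 ± 0.19 in KO-labelled arrays (3.5-fold, 1.63e-07). A further Rpa1 probe fell by 1.14 ± 0.22 (0.000488) and fell by 2.0 ± 0.21 (1.4e-07). Rpa2, the middle subunit, in KO-labelled arrays fell by 0.94 ± 0.30 (0.0117), which ended without KO-labelled 0 Gy replicate 2 (0.0754) and with 3 other scalings (0.0616 to 0.131). Lig1, the replicative ligase, gave a change of -0.60 ± 0.46 in WT (0.4) and 0.68 ± 0.43 in KO-labelled arrays (0.21), where its 7 Gy values ran from 1.95 to 5.06. The helicases Blm and Wrn, which unwind joined strands, passed in neither response.

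The members measured on all 24 arrays, whose values never met the floor of detection, were 8 in number: Lig1, Mgmt, Msh6, Rpa1, Ung, Xpa, Xrcc1 and Xrcc6. In a fit restricted to probes of this kind, 4 fell in WT (Msh6, Rpa1, Xpa and Xrcc6) and 5 in KO-labelled arrays (with Ung), and Mgmt rose in both. The background in that fit was 20.3% lower and 11.7% higher of 6756 genes in WT, and 39.1% and 18.1% in KO-labelled arrays. The plot of these 8 genes by array shows the doses apart in both genotypes for Mgmt, Msh6, Rpa1 and Xpa, and overlapping for Lig1 and Xrcc1. The Ung probe is the one that ends in a run of GT letters.

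**Figure D2:**
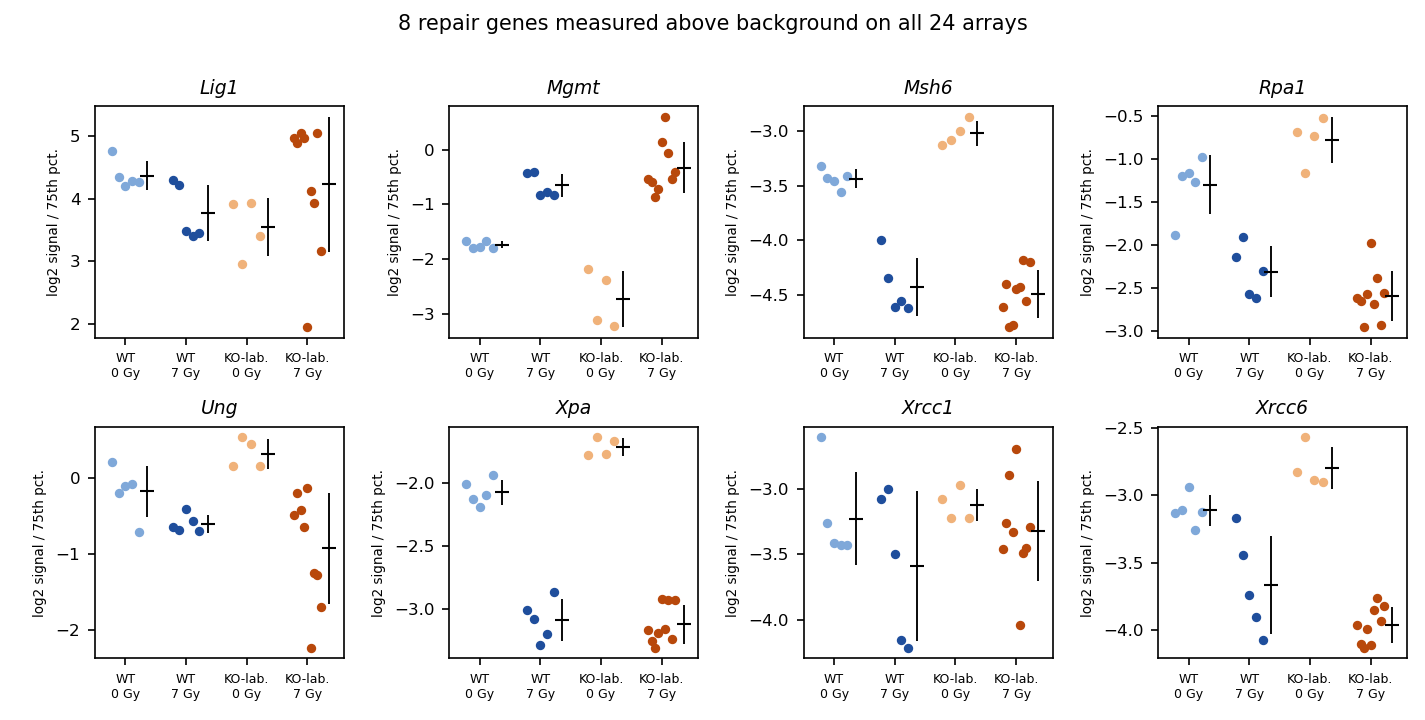
Log2 signal relative to the array's 75th percentile (vertical axis, a scale of its own per gene) in each sample for the 8 repair genes measured on all 24 arrays, by group; bars are mean and SD of 5, 5, 4 and 9 samples. Xpa sits between -2.19 and -1.94 in WT at 0 Gy and between -3.29 and -2.87 at 7 Gy, and Mgmt is higher at 7 Gy in both genotypes.

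Whether the 2 genotype labels responded differently was tested as the difference of the responses. It was larger, in the direction of a rise, for Mgmt, by 1.31 ± 0.34 (adjusted p = 0.0134), and lower in KO-labelled arrays for 5 members: Xrcc5 by -1.69 ± 0.43 (0.0124), Mre11a by -1.63 ± 0.50 (0.0324), Ddb2 by -1.13 ± 0.38 (0.0476), Rad52 by -1.0 ± 0.24 (0.00995) and Rad50 by -0.90 ± 0.24 (0.0169). The dimmer Rad50 probe gave a difference of -0.14 ± 0.52 (0.877), and the mean over the probes of a gene ended the Rad50 call (0.27). Over all genes 11.9% were called lower and 3.19% higher, so 5 of 38 (13.2%) is near the background and 1 of 38 (2.63%) is too. The remaining 9 genes that fell in KO-labelled arrays alone (Ercc2, Ercc3, Mutyh, Pms2, Rpa2, Trp53bp1, Ung, Xrcc3 and Xrcc4) were not shown to respond differently. With the slide as a block 14 members were called lower (36.8%, against 21.5% of all genes), and without the sixth slide 12 (31.6%, against 20.5%); under both, the members' share lay above the background. The block fits count all 24 arrays separately, KO-labelled replicates 1 and 4 at 0 Gy included, and the same arrays without a block gave 7 lower. The share of all genes called lower in that last fit is not given. None of the 5 decreases held under the 75th percentile over all probes, quantile normalization, normexp or the near-identical arrays averaged, and 2 (Rad52 and Xrcc5) held under median scaling. Mgmt was not called after normexp (0.512), in the authors' table (0.0606), with near-identical arrays averaged (0.0607) or without WT 7 Gy replicates 3 to 5 (0.125). Leaving out single arrays gave 3 to 10 lower. Ddb2 was lost without any 1 of 16 arrays (0.0512 to 0.109), and Mre11a without KO-labelled 0 Gy replicate 2 or 5, WT 0 Gy replicate 1 or WT 7 Gy replicate 2 or 4 (0.0521 to 0.0728).

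**Figure D3:**
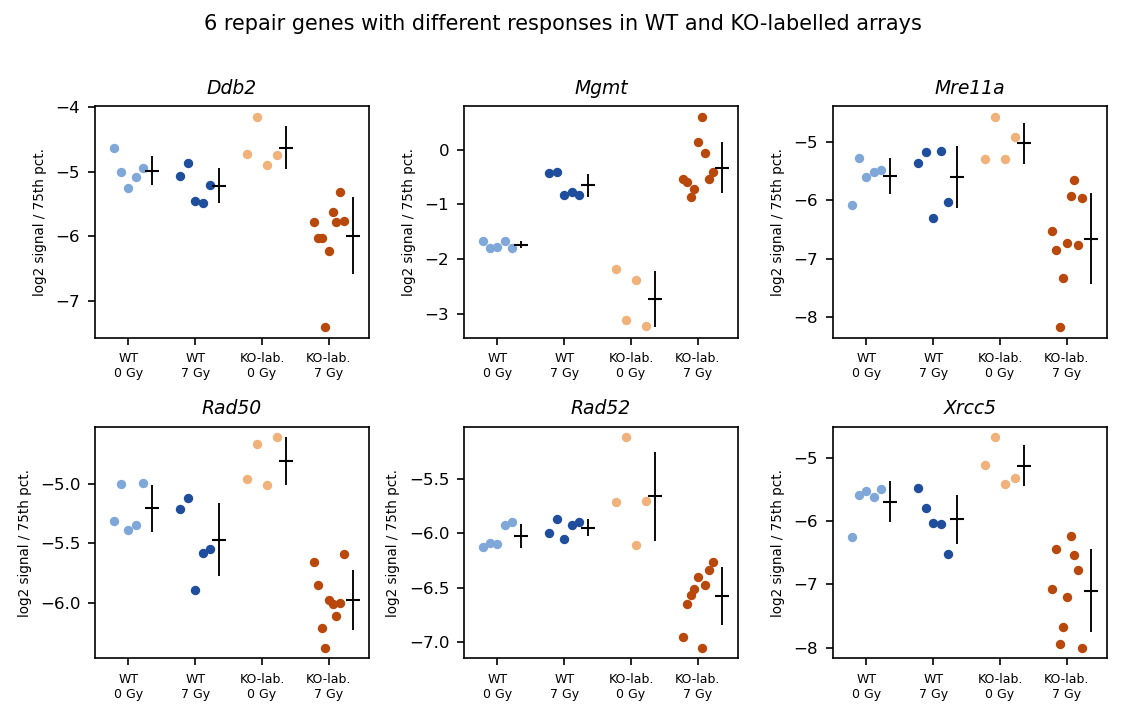
Log2 signal relative to the array's 75th percentile (vertical axis, a scale of its own per gene) in each sample, by group, for the 6 repair genes whose responses differed between WT and KO-labelled arrays; bars are mean and SD of 5, 5, 4 and 9 samples. For Ddb2, Mre11a, Rad50 and Xrcc5 the WT groups overlap while the KO-labelled groups do not, and Rad52 spans -6.13 to -5.87 over all 10 WT samples.

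Between genotype labels at 0 Gy no member passed (limma; 8 of 38 at an unadjusted p under 0.05, 7 of them higher in KO-labelled arrays), against 0.209% of all genes called higher and 0.0824% lower. The smallest adjusted p was 0.135, for Mgmt. The members' median difference was 0.36, that of all genes 0.09. Groups did not overlap for 5 members higher and 2 lower in KO-labelled arrays, against 6.91% and 3.73% of all genes. Only Rad52 did not overlap at 7 Gy (1 lower, against 5.14% of all genes, and 0 higher, against 0.9%). At 7 Gy 7 members were lower in KO-labelled arrays: Xpc at -1.15 ± 0.25 (2.22-fold, adjusted p = 0.00228), Xrcc5 at -1.12 ± 0.27 (0.00482), Mre11a at -1.06 ± 0.32 (0.0197), Ercc3 at -0.99 ± 0.29 (0.0162), Ddb2 at -0.77 ± 0.24 (0.0244), Rad52 at -0.63 ± 0.15 (0.00501) and Rad50 at -0.51 ± 0.15 (0.0214). That is 18.4% of the members, at the background of 17.8% lower, with none higher against 4.58%. On each of the 5 slides all 7 were lower in the KO-labelled array. They were called on these same arrays, so this is no separate support. Members not called, such as Mutyh, Xrcc4 and Nhej1, were also lower on all 5 slides. With the slide as a block 15 were called (39.5%, against 25% of all genes), with near-identical arrays averaged only Xpc, and single arrays left out gave 4 to 10. Without WT 7 Gy replicates 3 to 5 Rad50, Xrcc5 and Xrcc6 were called. The dimmer Rad50 probe differed by -0.1 ± 0.33 at 7 Gy (0.869), and the mean over the probes of a gene ended the Rad50 call (0.313). Summed neutrophil markers stood at 5.64 to 7.27 in WT and 3.62 to 5.15 under the KO label at 7 Gy, with 5 of 6 of these markers lower and 1 higher. Of the other lists, 4 of 8 T cell, 4 of 6 natural killer cell, 2 of 5 monocyte and 6 of 8 hepatocyte markers were lower and 3 of 6 erythroid markers higher, and no B cell or platelet marker was called. The part of these cell types in the differences was not tested. Msh6, Xpa and Rpa1 were not called between genotypes at 7 Gy, with -0.06 ± 0.13, -0.03 ± 0.11 and -0.28 ± 0.18.

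The 11 members without a measured probe were Brca1, Brca2, Exo1, Fancd2, Lig4, Nbn, Palb2, Polh, Rad54l, Rrm2b and Xrcc2. Their probes were well above background on 0 to 2 of the 24 arrays, so they were left out of the fit. Fitted without the filter on dim probes, Lig4 was called lower in KO-labelled arrays and no other of the 11 was called in either response. They include the core of homologous recombination (Brca1, Brca2 and Palb2), the end-joining ligase Lig4 and Rrm2b, a ribonucleotide reductase subunit known as a p53 target. A further limit is Pms2, since the files describe 2 of its 4 probes as Rsph10b. Those probes were well above background on 1 and 0 arrays and were not used.

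A list of 68 other repair genes, 55 of them measured, is given beside them. In WT 11 fell (20%, against 13.6% of all genes) and 2 rose, with a median change of -0.36. In KO-labelled arrays 39 fell (70.9%, against 34.6%) and 1 rose, with a median of -0.96. Pold1, the catalytic subunit of a replicative polymerase, fell by 1.94 ± 0.26 (5.41e-06) in WT and fell by 2.34 ± 0.24 (1.32e-07) in KO-labelled arrays. Msh3, a partner of mismatch recognition, fell by 1.21 ± 0.30 (0.00485) and fell by 2.52 ± 0.29 (4.06e-07), and Tdp2, which frees ends from another topoisomerase, fell by 1.38 ± 0.30 (0.00166) and fell by 2.19 ± 0.29 (2.57e-06). Mad2l2, a subunit of a translesion polymerase, rose in both, by 0.46 ± 0.16 (0.0354) and 0.79 ± 0.15 (0.000143). The summed level of the 55 genes was 2.50 to 2.60 in WT at 0 Gy and 2.17 to 2.35 at 7 Gy, and 2.70 to 2.86 and 1.81 to 2.24 in KO-labelled arrays, without overlap between doses.

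Markers of blood cell types and of hepatocytes changed after 7 Gy, in directions that differed between the lists. All 8 B cell markers fell in both genotypes, and their summed level was 2.91 to 3.12 at 0 Gy and -2.25 to -0.56 at 7 Gy in WT, and 3.28 to 3.6 at 0 Gy and -2.83 to 0.52 at 7 Gy in KO-labelled arrays. Of these 8, Pax5 and Blk were not well above background on any 7 Gy array, and the others were on some in each genotype. Of 8 T cell markers 3 fell in WT and 6 in KO-labelled arrays, and of 6 neutrophil markers 1 and 4. All 8 hepatocyte markers rose in WT and 6 of 8 in KO-labelled arrays. Their summed level was 2.37 to 6.5 in WT at 7 Gy, with replicates 3 to 5 at 6.32 to 6.5, and 0.02 to 2.57 under the KO label at that dose. Without WT 7 Gy replicates 3 to 5, Msh6 and Xpa fell in WT and Mgmt and Polk rose, and the other 11 decreases were no longer called, with 2 WT 7 Gy arrays left. Without them the changes of Apex1, Parp2 and Xpc were -1.81 (0.0511), -1.66 (0.0716) and -1.14 (0.0682), no smaller than with all arrays, while those of Lig3, Fancl and Xrcc6 were -0.41, -0.45 and -0.20. Of 6 platelet markers 4 and 5 rose, and of 6 natural killer cell markers 1 rose in WT and 3 fell in KO-labelled arrays. Of 5 monocyte markers measured 2 fell in each genotype; erythroid markers gave 3 of 6 lower in both and 3 higher in KO-labelled arrays. Among 6 proliferation genes 4 were measured, and 2 fell in each genotype. Top2a and Ccnb1 were not measured, by the rule of at least 5 arrays well above background. The part of these cell types in the repair gene changes was not tested.

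**Figure D4:**
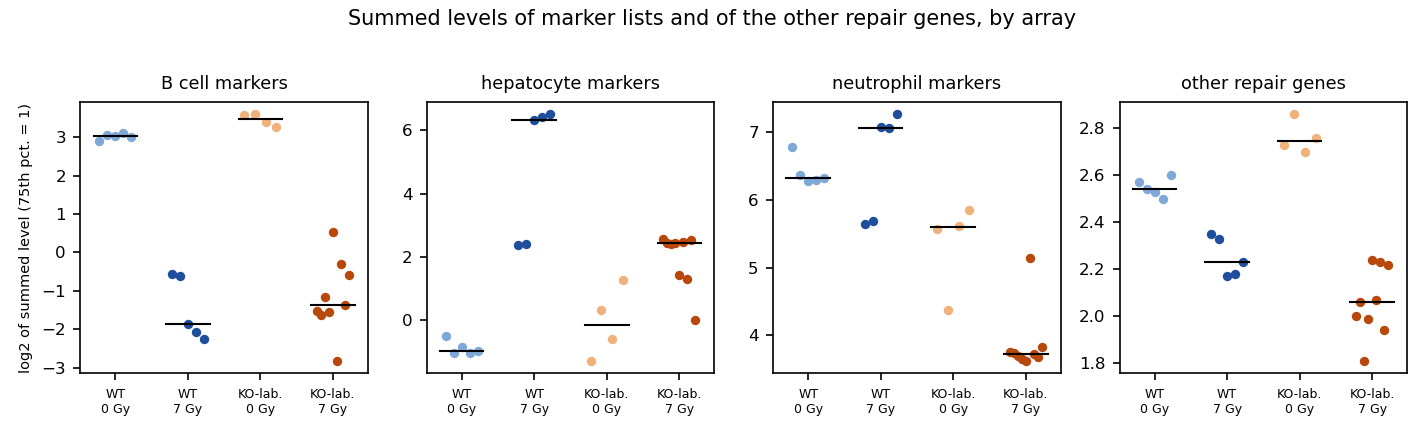
Log2 of the summed level (vertical axis, 75th percentile of the array set to 1 before the sum; a scale of its own per panel) of B cell, hepatocyte and neutrophil markers and of the 55 other repair genes in each sample, by group; lines are medians. B cell markers and the other repair genes are lower in every 7 Gy sample than in any 0 Gy sample of the same genotype.

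The count of repair genes called in each response depended on how arrays were combined, as the plot of calls by processing shows. With near-identical arrays averaged, 6 fell in WT (Apex1, Fanca, Msh6, Rpa1, Tdp1 and Xpa) and 27 in KO-labelled arrays. With the slide as a block 15 fell in WT and 30 in KO-labelled arrays. Without the KO-labelled arrays of the sixth slide 28 fell. Shares of all genes called lower in these KO-labelled fits are not given, so the counts are not compared with the background. Under normexp correction, which adds an offset of 50 to every signal, Mgmt rose in both genotypes, no member fell in WT, and Rpa1 and Ung fell in KO-labelled arrays. The Ung call carries the limit of its probe given above. Quantile normalization ended the WT decreases of Apex1 (0.0586), Parp1 (0.0587), Parp2 (0.0641) and Xpc (0.0865). No processing tried gave more increases than 3 among the members.

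**Figure D5:**
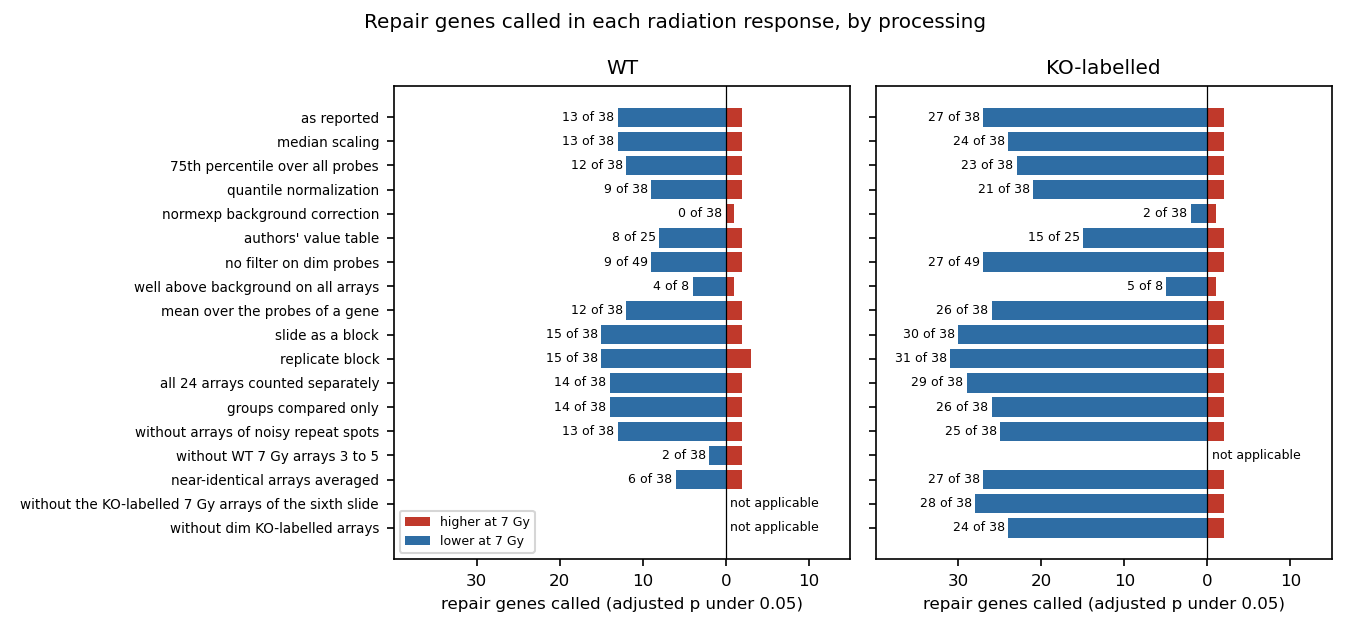
Number of repair genes called lower (left of 0) and higher (right of 0) at 7 Gy under each processing (rows), in WT and KO-labelled arrays; labels give the number lower of those measured. WT runs from 0 to 15 lower and KO-labelled arrays from 2 to 31.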

How the data were processed

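RNA from 24 blood samples was hybridised to one-colour Agilent arrays. Per the file headers, the deposited intensity had its background subtracted and spatial trends removed, array by array, with Agilent Feature Extraction 12.0.2 on build mm9. The authors' deposited value table holds log2 values of 12863 probes that are not controls, equal to the scanner's log2 signal plus a constant for each array. Control spots and outlier flags were left out and repeat spots averaged. From each array's log2 signal its 75th percentile over 7803 probes well above background on all arrays was subtracted. Of 39429 probes, 19648 were well above background on at least 5 arrays, and the brightest probe stood for each of 15785 genes. One limma 3.58.1 model (R 4.3.3) of the 4 groups gave two-sided p-values, adjusted by Benjamini-Hochberg over all genes, and standard errors of the fit. The fit was also run on simulated data. These were drawn independently for each sample, so that run could not test the effect of near-identical arrays or shared slides. A bound ("at least") sets the bright group's mean against the lowest signal well above background and carries no standard error. The number of arrays limits the precision. Members are the 49 genes named by the arrays' gene names, described in full where called; per-array values are given for 19. Members and lists were chosen with earlier results of these data known. Arrays numbered 1 to 5 share slides 1 to 5. Same-numbered arrays correlated from -0.23 to 0.711 in their deviations, above 0.1 in 18 of 30 pairs, so the numbers were not taken to pair samples beyond the slide. Alternatives changed scaling, background correction, filter, probe rule, blocks and the arrays included. One gene that the naming rule picks from the list of other repair genes is not reported here.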

Additional observations from a re-analysis of the deposited data

Results flagged for a closer look

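In 5 of 76 groups of values, 1 array lay far from the others, where chance marks about 1 in 20 groups. Ddb2 in KO-labelled 7 Gy replicate 4 was at -7.40, with the other arrays at -6.22 to -5.31. Fanca in WT 7 Gy replicate 4 was at -7.99 (others -6.98 to -6.58), and Parp2 in WT 7 Gy replicate 1 at -8.31 (others -7.01 to -6.5). Parp1 in WT 0 Gy replicate 1 was at -7.28 (others -3.93 to -3.41), and Xrcc5 on the same array at -6.26 (others -5.62 to -5.49). None of the 5 was well above background on that array.

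The response to 7 Gy differed between genotype labels, by limma, for 6 members, at 13.2% lower and 2.63% higher against 11.9% and 3.19% of all genes. None of the 6 was called after normexp or with near-identical arrays averaged. KO-labelled minus WT, it was 1.31 for Mgmt, -1.69 for Xrcc5, -1.63 for Mre11a, -1.13 for Ddb2, -1.0 for Rad52 and -0.90 for Rad50.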

How the results depend on the processing

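Of 3118 member values under the alternatives, 2819 kept their direction and side of the threshold, 221 calls were lost, 43 were gained and 35 reversed, 31 of those after normexp (offset 50). After normexp the WT changes were Apex1 0.31, Fanca 0.57, Fancl 0.32, Lig3 0.64, Msh6 0.02, Parp2 0.62, Prkdc 0.74, Tdp1 0.32, Xpc 0.01 and Xrcc6 0.06. The KO-labelled changes were Apex1 0.16, Ddb2 0.27, Ercc2 0.27, Ercc3 0.48, Fanca 0.15, Fancl 0.19, Lig3 0.43, Mre11a 0.26, Mutyh 0.33, Parp2 0.28, Pms2 0.56, Prkdc 0.51, Rad50 0.29, Rad52 0.51, Rpa2 0.48, Tdp1 0.23, Trp53bp1 0.32, Xpc 0.03, Xrcc3 0.70, Xrcc4 0.50 and Xrcc5 0.30. In the authors' table Lig3 was at 0.52 in WT and 0.53 in KO-labelled arrays and Tdp1 at 0.23 and 0.32; that table holds another probe of both genes than the one used here. The cause of the reversals after normexp was not tested.

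The counts below are of members alone. They describe shifts with the processing, not how members compare with all genes. Calls after 7 Gy in WT were 2 higher and 13 lower. They were 1 and 0 after normexp, 2 and 8 of 25 in the authors' table, 1 and 4 of 8 with probes well above background on all arrays, 2 and 2 without WT 7 Gy arrays 3 to 5, and 2 and 6 with near-identical arrays averaged, an alternative chosen after seeing the data. In KO-labelled arrays 2 and 27 became 1 and 2, 2 and 15, and 1 and 5 under the first 3 of these. The difference of responses, 1 higher and 5 lower, had 0 higher after normexp, in the authors' table, without WT 7 Gy arrays 3 to 5 and with near-identical arrays averaged. Its lower calls were 0 with the 75th percentile over all probes, quantile normalization, normexp, the authors' table and near-identical arrays averaged. They were 2 with median scaling and without a filter, 1 without noisy arrays, 3 without WT 7 Gy arrays 3 to 5 and without dim arrays, 12 without the sixth slide, and 14 with the slide as a block. The authors' table holds no probe of Rad50 or Rad52, so their calls could not be tested there, in this comparison or at 7 Gy. The 7 lower calls at 7 Gy were 2 with the 75th percentile over all probes, 3 with quantile normalization, 0 after normexp and in the authors' table, 15 with the slide as a block, 4 with the compared groups alone, 3 without WT 7 Gy arrays 3 to 5, 1 with near-identical arrays averaged, 12 without the sixth slide and 4 without dim arrays. With probes measured on all arrays the lower calls were 2 of 8 for the difference (Rpa1 and Xrcc6) and 0 of 8 at 7 Gy, but none of the members called lower above is among those 8. The sixth-slide and dim-array alternatives, and WT 7 Gy arrays 3 to 5 for comparisons of genotypes, were also chosen after seeing the data.

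With the replicate block, whose numbers 1 to 5 are also slides 1 to 5, so that it differs from the slide block only for KO-labelled 7 Gy replicates 6 to 9, WT calls were 3 higher and 15 lower, KO-labelled calls 2 and 31, the difference 1 and 16, and the 7 Gy comparison 0 and 14. Both block fits count all 24 arrays separately; without a block these gave 14 lower in WT, 29 in KO-labelled arrays, 7 for the difference and 7 at 7 Gy.

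Leaving out 1 array at a time gave 2 to 3 higher and 9 to 13 lower in WT, 1 to 3 and 25 to 28 in KO-labelled arrays, 1 to 2 and 3 to 10 for the difference, 0 to 0 at 0 Gy in both directions, and 0 to 0 and 4 to 10 at 7 Gy. Signal over background limits the 30 measured members that were not well above background on every array.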
